A study of Homo sapiens with 8 samples.

Results

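The AP-1 and immediate early genes examined here were JUN, JUNB, JUND, FOS, FOSB, FOSL1, FOSL2, EGR1, ATF3 and IER2, which are 10 of the 20033 protein-coding genes in release 44 of the GENCODE annotation of hg38. They were listed by name, and a peak was counted for a gene when its summit, the base with the highest signal, lay in the gene or within 5 kb of it. The peaks came from chromatin immunoprecipitation followed by sequencing (ChIP-seq) in U-2 OS, a human osteosarcoma cell line. Sp1 was pulled down from an endogenous knock-in V5-Halo-SP1 line with 2 different rabbit antibodies, called antibody 1 and antibody 2, in 1 library apiece, beside 1 normal rabbit IgG library and 1 input. CTCF was pulled down in 2 replicates from clone C32, an endogenous knock-in FLAG-Halo-CTCF line, and each replicate had its input. All cells were crosslinked with 1% formaldehyde for 6 min. The titles call the Sp1 line parental although its genotype field carries the tag, and the series design text names wild type cells for CTCF where the sample labels name the clone; the sample labels were followed. Each tagged line is a single engineered line, so the clone and the target cannot be told apart between the Sp1 and CTCF lists. The methods of the study also name different sequencing instruments for the Sp1 and CTCF libraries, so the instrument cannot be told apart from the target either. Each of the 5 libraries with a list used here was called on its own, and the 3 inputs were not analysed here as lists. With 1 library per Sp1 antibody and 2 CTCF replicates, no difference was tested, and every comparison is a description. The lists hold no gene expression, so the cell type could not be checked against marker genes.

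AP-1 is a family of dimers in which a JUN protein pairs with another JUN protein, a FOS protein or a relative such as ATF3 through a basic leucine zipper. These dimers bind the AP-1 element or the related cyclic AMP response element (CRE). Many of their genes, together with EGR1 and IER2, are immediate early genes, transcribed within minutes of a growth factor, serum or stress signal without new protein synthesis, and their promoters are known for serum response elements (CArG boxes bound by SRF), CREs and GC boxes. Sp1 is a zinc finger factor that binds GC boxes in promoters. CTCF is a zinc finger factor that binds a long motif and, with cohesin, forms the anchors of chromatin loops.

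The following promoters, each given as the 250 bases before the start site in the direction of transcription, are shown because Sp1 summits lay in or near them or, at JUND, did not. They are RefSeq sequence of GRCh38.p14. Capitals mark the GC box (GGGCGG, either strand), the CRE (TGACGTCA) at JUND, the ETS core (CCGGAA, either strand) at FOSB, and the 2 CArG boxes at EGR1. The intervals are chr1:58784048-58784297 (minus strand) for JUN, chr19:18281623-18281872 (minus strand) for JUND, chr14:75278578-75278827 (plus strand) for FOS, chr19:45467746-45467995 (plus strand) for FOSB and chr5:138465229-138465478 (plus strand) for EGR1.
JUN: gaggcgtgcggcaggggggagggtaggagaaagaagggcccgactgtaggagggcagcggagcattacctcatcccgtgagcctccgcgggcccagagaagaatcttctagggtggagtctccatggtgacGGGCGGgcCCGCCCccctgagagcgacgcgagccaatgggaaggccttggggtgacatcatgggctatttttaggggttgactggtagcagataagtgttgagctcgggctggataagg
JUND: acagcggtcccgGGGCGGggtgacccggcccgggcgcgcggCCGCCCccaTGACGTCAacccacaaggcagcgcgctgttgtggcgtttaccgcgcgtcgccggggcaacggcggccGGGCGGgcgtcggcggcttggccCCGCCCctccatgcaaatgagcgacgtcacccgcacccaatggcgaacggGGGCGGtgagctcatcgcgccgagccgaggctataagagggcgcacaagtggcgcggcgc
FOS: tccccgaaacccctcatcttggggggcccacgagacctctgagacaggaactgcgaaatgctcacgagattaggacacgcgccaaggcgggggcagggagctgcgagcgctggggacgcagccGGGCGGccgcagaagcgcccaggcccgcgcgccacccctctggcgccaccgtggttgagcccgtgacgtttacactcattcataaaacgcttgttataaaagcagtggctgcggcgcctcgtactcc
FOSB: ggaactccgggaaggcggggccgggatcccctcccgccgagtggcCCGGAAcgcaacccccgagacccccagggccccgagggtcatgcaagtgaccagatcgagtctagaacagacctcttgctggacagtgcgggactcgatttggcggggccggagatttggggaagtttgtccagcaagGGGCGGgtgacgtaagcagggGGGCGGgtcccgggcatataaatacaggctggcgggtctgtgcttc
EGR1: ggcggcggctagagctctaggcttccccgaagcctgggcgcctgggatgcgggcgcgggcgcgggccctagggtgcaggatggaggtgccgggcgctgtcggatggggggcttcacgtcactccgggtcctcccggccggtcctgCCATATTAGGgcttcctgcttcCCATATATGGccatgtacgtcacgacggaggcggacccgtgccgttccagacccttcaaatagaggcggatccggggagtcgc

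The next sequences are the summit base and 50 bases of hg38 on either side of it, written on the strand of the named gene. The ATF3 and FOSL2 antibody 2 windows are shown because antibody 2 exceeded antibody 1 at the first, as it also did at the IER2 promoter, and stood without it at the second. The CTCF windows are those of the strongest replicate 1 peak of JUNB, JUND, FOSB, FOSL1, EGR1 and ATF3, and that of FOSL2, which lies beside its antibody 2 peak. In the CTCF windows capitals mark the best match to the core of the CTCF motif, a pattern of 12 bases, on either strand, where it had at most 2 mismatches. The FOSL1 and ATF3 CTCF windows had no such match and have no capitals. No GC box lay in the ATF3 and FOSL2 antibody 2 windows, so those have no capitals. The ATF3 antibody 2 window is chr1:212608529-212608629 (plus strand) and the FOSL2 antibody 2 window is chr2:28396526-28396626 (plus strand). The CTCF windows are chr19:12796676-12796776 for JUNB (plus strand), chr19:18279512-18279612 for JUND (minus strand), chr19:45479114-45479214 for FOSB (plus strand), chr11:65888572-65888672 for FOSL1 (minus strand), chr2:28396920-28397020 for FOSL2 (plus strand), chr5:138464225-138464325 for EGR1 (plus strand) and chr1:212595992-212596092 for ATF3 (plus strand).
ATF3 antibody 2: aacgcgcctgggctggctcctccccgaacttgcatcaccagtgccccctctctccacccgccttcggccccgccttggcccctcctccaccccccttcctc
FOSL2 antibody 2: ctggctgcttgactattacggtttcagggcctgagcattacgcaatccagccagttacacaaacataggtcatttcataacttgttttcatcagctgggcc
JUNB CTCF: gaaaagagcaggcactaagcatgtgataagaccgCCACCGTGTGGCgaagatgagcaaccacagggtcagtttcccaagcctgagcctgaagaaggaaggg
JUND CTCF: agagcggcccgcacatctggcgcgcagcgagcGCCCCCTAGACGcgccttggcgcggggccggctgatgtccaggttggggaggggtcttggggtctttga
FOSB CTCF: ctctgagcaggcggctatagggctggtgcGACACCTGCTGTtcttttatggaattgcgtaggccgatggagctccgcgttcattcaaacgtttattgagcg
FOSL1 CTCF: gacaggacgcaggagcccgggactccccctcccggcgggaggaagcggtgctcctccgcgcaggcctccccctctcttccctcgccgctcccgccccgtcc
FOSL2 CTCF: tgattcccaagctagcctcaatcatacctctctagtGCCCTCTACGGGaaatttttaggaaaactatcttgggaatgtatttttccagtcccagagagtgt
EGR1 CTCF: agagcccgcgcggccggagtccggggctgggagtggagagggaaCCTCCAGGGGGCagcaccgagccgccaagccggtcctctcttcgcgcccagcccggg
ATF3 CTCF: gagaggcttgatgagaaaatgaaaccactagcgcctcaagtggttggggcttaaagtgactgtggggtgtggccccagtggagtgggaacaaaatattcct

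Every one of the 10 genes carried a peak of Sp1 antibody 1, which 44.3% of all protein-coding genes did. Antibody 2 gave a peak at 6 of the 10 genes, JUN, FOSB, FOSL1, FOSL2, ATF3 and IER2, against 31.0% of all genes. CTCF replicate 1 gave a peak at all 10 genes and replicate 2 at 9 of them, all but FOS, against 68.1% and 61.6% of all genes. A peak in each of these 4 lists was present at 6 of the 10 genes and at 18.7% of all genes. The median length of the 10 genes was 5843 bp, against 27471 bp over all protein-coding genes, and the part of gene length in these counts was not tested. The IgG list held 106 peaks, of which 0 met the rule at these genes, and the nearest IgG summit on the same chromosome was 1341592 bp away, at FOSL2.

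A narrower count took only summits within 1 kb of an annotated start site of the gene, a setting chosen after seeing the data. Antibody 1 then marked 8 of the 10 genes, all but JUNB and JUND, against 37.3% of all genes. Antibody 2 marked 4 of the 10, against 24.1%. CTCF marked 3 genes in replicate 1 (FOSL1, ATF3 and IER2) and 2 in replicate 2 (ATF3 and IER2), against 32.4% and 24.8% of all genes. Sp1 peaks at start sites were common in the lists as a whole and not particular to these genes. Of all genes with an antibody 1 peak by the 5 kb rule, 7481 of 8883 had one within 1 kb of a start. For antibody 2 it was 4825 of 6205, and for the members 8 of 10 and 4 of 6. The CTCF counts of the members at start sites were no higher than the share over all genes. The start nearest to the summit belonged to the gene itself for 13 of 15 antibody 1 peaks and 6 of 8 antibody 2 peaks. For CTCF it did so for 15 of 20 peaks in replicate 1 and 11 of 16 in replicate 2. The share of such peaks over the whole lists is not given here.

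**Figure D1:**
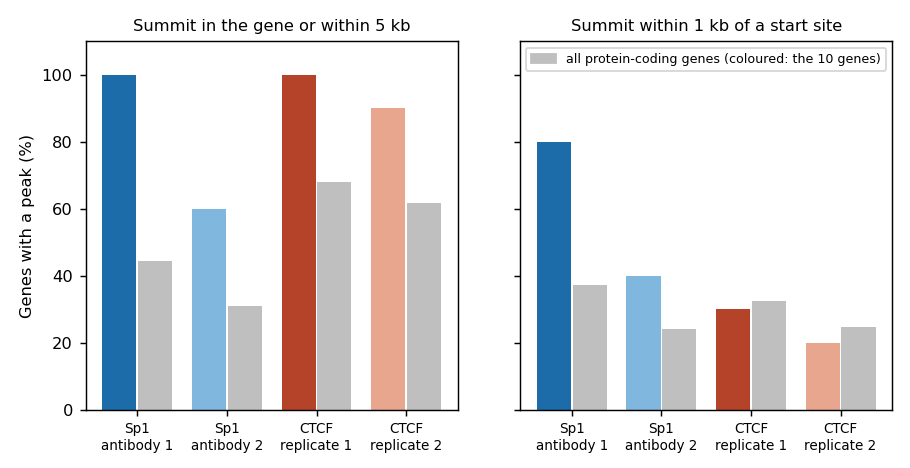
Bars give the percentage of genes with a peak summit in the gene or within 5 kb (left) and within 1 kb of an annotated start site (right) in each of the 4 peak lists, with coloured bars for the 10 AP-1 and immediate early genes and grey bars for all 20033 protein-coding genes. The coloured Sp1 antibody 1 bar stands at 10 of 10 genes on the left and 8 of 10 on the right, above 44.3% and 37.3%, while on the right the CTCF bars, at 3 and 2 of 10 genes, lie below 32.4% and 24.8%.

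The enrichment at these peaks is set beside that of each whole list. The fold enrichment is the signal at the summit over the control as given by the authors' peak caller. Which library served as the control of each list is not given in the sources used here, so the ratio between the 2 antibodies also depends on that control. The −log10 q beside the fold is the deposited significance of the peak against that control, not of a difference. The 15 antibody 1 peaks at the 10 genes ran from 3.92-fold to 18.3-fold with a median of 6.72, against 7.72 over the whole list. The 8 antibody 2 peaks ran from 5.43-fold to 14.3-fold with a median of 6.93, against 6.75. The 20 peaks of CTCF replicate 1 ran from 3.99-fold to 159-fold with a median of 17.3 against 27.5, and the 16 of replicate 2 from 3.20-fold to 77.8-fold with a median of 20.5 against 20.0. Taking the strongest peak of each gene, the median was 9.49-fold for antibody 1 and 7.92-fold for antibody 2, against 9.18 and 7.20 over all genes with a peak. For CTCF it was 65.9-fold in replicate 1, against 59.3, and 25.9-fold in replicate 2, against 34.1. Fold enrichments were not compared between antibodies against different targets, since each depends on the antibody.

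**Figure D2:**
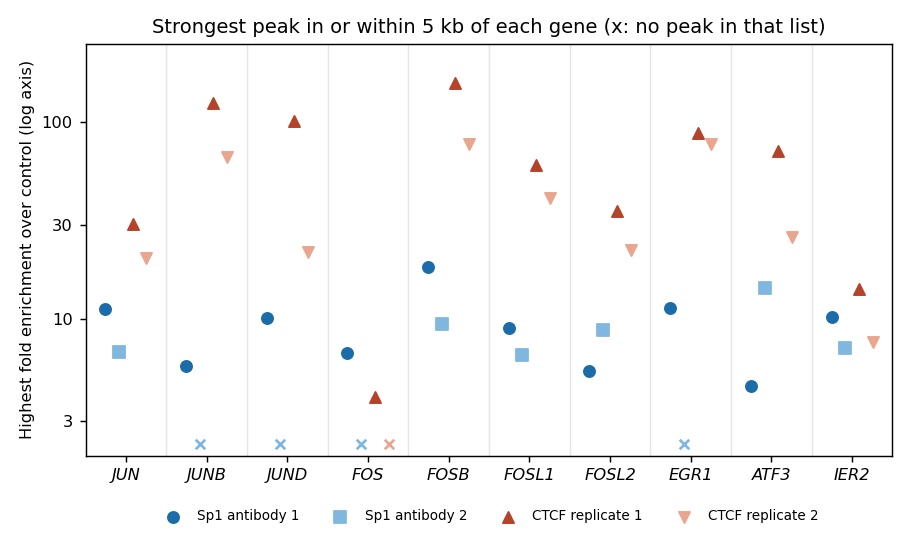
Points give the highest fold enrichment over control (log axis) among the peaks in or within 5 kb of each of the 10 genes, in the 2 Sp1 antibody lists and the 2 CTCF replicates; a cross at the bottom marks a gene with no peak in that list. CTCF replicate 1 lies above replicate 2 at each gene with both, antibody 2 lies above antibody 1 at FOSL2 and ATF3 among the 6 genes with both, and FOS has the lowest CTCF value, 3.99-fold.

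JUN encodes c-Jun, the founding AP-1 protein, and its promoter carried Sp1 in both lists. The antibody 1 peak at chr1:58783940-58784869 was 11.1-fold enriched (−log10 q 26.9), with its summit 129 bp upstream of the start. The antibody 2 peak was 6.75-fold enriched (−log10 q 10.7), 158 bp upstream. The summits were 29 bp apart and lay just upstream of the 2 GC boxes in the JUN sequence above, which begin 119 and 111 bp upstream of the start. CTCF lay on either side of the promoter. A peak 1228 bp upstream in replicate 1 and 1257 bp upstream in replicate 2, in an exon of the non-coding gene LINC01135, was 30.2-fold and 20.4-fold enriched. A weaker one lay in an untranslated region (UTR) of JUN, 2136 and 2143 bp downstream, at 15.3-fold and 9.84-fold. Both replicates gave the upstream peak the higher fold.

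JUNB encodes a JUN protein that is a weaker activator than c-Jun at many AP-1 sites, and it was the member whose Sp1 signal lay farthest upstream of its start. Its antibody 1 peak was 5.74-fold enriched (−log10 q 6.56), 1442 bp upstream, in an intron of the neighbouring gene HOOK2. Antibody 2 gave no peak at JUNB. A CTCF peak at chr19:12796387-12797170 lay 5240 bp downstream of the start, also in a HOOK2 intron, and was 124-fold enriched in replicate 1 and 66.1-fold in replicate 2, above 90.9% and 89.7% of the peaks of their lists. The nearest annotated start to that summit was that of PRDX2, 3521 bp away, not that of JUNB.

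JUND encodes the JUN protein that is least dependent on induction, and its Sp1 peak was not at its promoter. The antibody 1 peak at chr19:18279491-18279957 was 10.1-fold enriched (−log10 q 18.1), and its summit lay 1830 bp downstream of the main start in a UTR of JUND. Antibody 2 gave no peak. The JUND promoter held 6 GC boxes in the 300 bases from 250 before to 50 after the start, of which the 250 bases printed above show 5. Only 2.86% of the 35116 RefSeq promoters held as many. Of those promoters, 44.1% had an antibody 1 summit within 1 kb of the start and 21.5% an antibody 2 summit, and JUND had neither.

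At the 3′ end of JUND the 2 CTCF replicates drew the same ground differently. Replicate 1 gave a peak of 1497 bp at chr19:18278372-18279868 that was 101.3-fold enriched (−log10 q 601). Over the same interval replicate 2 gave a pair of peaks, 21.9-fold (−log10 q 232) at 2052 bp and 15.5-fold (−log10 q 65.1) at 2968 bp downstream of the start. The summit of replicate 1 lay 8 bp from the first of these. A small peak near 4 kb downstream was 6.44-fold and 4.07-fold enriched in the 2 replicates. The nearest start to it was that of IQCN, 3140 and 3128 bp away.

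FOS encodes c-Fos, the classical immediate early protein, and it was the member with the least CTCF signal. Antibody 1 gave a 6.70-fold peak (−log10 q 14.7) at chr14:75278291-75279020, with its summit 365 bp upstream of the start, and antibody 2 gave none. Replicate 1 of CTCF gave a 3.99-fold peak (−log10 q 4.96) 1521 bp upstream, which was stronger than 3.84% of the peaks of its list. Replicate 2 gave no peak at FOS. The single CTCF call at FOS therefore rested on 1 replicate.

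FOSB encodes a FOS protein with an alternative short form, and it had the highest Sp1 antibody 1 and CTCF fold enrichments of the 10 genes. At the promoter, antibody 1 was 18.3-fold enriched (−log10 q 65.5) at chr19:45467631-45468217, above 89.1% of its list, and antibody 2 was 9.38-fold enriched (−log10 q 23.7). The antibody 1 summit lay 129 bp upstream of the start and the antibody 2 summit 24 bp upstream. The 2 GC boxes of the FOSB sequence begin 67 and 46 bp upstream, between these summits. Further in, both antibodies had a peak with summits 1 bp apart, 1323 and 1324 bp downstream of the main start, at 10.5-fold and 5.43-fold. These summits lay 557 and 556 bp upstream of another annotated FOSB start. All 4 Sp1 summits also lay in an intron of ERCC1, a DNA repair gene that overlaps FOSB.

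The CTCF peak counted for FOSB, at chr19:45478166-45479511, was 159-fold enriched in replicate 1 (−log10 q 1424) and 77.8-fold in replicate 2 (−log10 q 676), above 95.8% and 93.6% of the peaks of their lists. It lay 11168 bp downstream of the FOSB start and 336 bp from an annotated start of ERCC1. The strongest CTCF peak of the group was thus nearer to a neighbouring promoter than to the gene it was counted for.

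FOSL1 encodes Fra-1, a FOS protein often raised in tumour cells, and it sat in a dense stretch of promoters. Its own promoter carried antibody 1 only, at 5.97-fold (−log10 q 8.00), 262 bp upstream of the main start and 77 bp from another FOSL1 start. Another 2 antibody 1 peaks lay near neighbours, at 8.92-fold 134 bp from a start of CCDC85B and at 6.72-fold 8 bp from a start of FIBP. The one antibody 2 peak, 6.54-fold, lay 82 bp from the FIBP start. CTCF had a 60.4-fold and 41.3-fold peak at the same FIBP start and a 19.2-fold and 11.5-fold peak 8435 and 8432 bp downstream of the FOSL1 start. The nearest start to the latter peak was that of CCDC85B, 1280 and 1283 bp away in the 2 replicates. Inside FOSL1, an intronic peak 880 bp downstream of its start was present in replicate 1 only, at 6.05-fold.

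FOSL2 encodes Fra-2, a FOS protein with roles in bone and cartilage, and the 2 Sp1 antibodies gave no overlapping peak there. Antibody 1 was weak, at 3.92-fold (−log10 q 3.56) 1152 bp upstream and 5.41-fold (−log10 q 7.38) 43 bp upstream of the main start. Antibody 2 instead gave an 8.72-fold peak (−log10 q 24.4) at chr2:28396409-28396759, in an intron 3718 bp downstream. That peak lay beside the main CTCF peak of FOSL2, which was 35.2-fold and 22.4-fold enriched 4112 and 4123 bp downstream. The other CTCF peaks were small. One in a UTR was 4.97-fold and 3.20-fold enriched in the 2 replicates, and replicate 1 alone gave a 4.51-fold and a 4.80-fold peak.

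EGR1 encodes a zinc finger activator induced with FOS by serum, and it had one strong peak of each factor. Antibody 1 gave an 11.3-fold peak (−log10 q 21.7) at chr5:138464764-138465492 with its summit 232 bp upstream of the start, and antibody 2 gave none. The printed EGR1 promoter holds no GC box, and of the 19330 RefSeq promoters without one, 10.8% had an antibody 1 summit within 1 kb of the start. The antibody 1 peak reaches farther upstream than that promoter and, like all 15 at these genes, held a GC box somewhere in its interval. The CArG boxes of EGR1 begin 105 and 83 bp upstream. CTCF was 88.0-fold enriched in replicate 1 (−log10 q 871), 1204 bp upstream, and 76.9-fold in replicate 2 (−log10 q 538), 1213 bp upstream. These are the closest replicate values among the shared CTCF peaks of the 10 genes.

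ATF3 encodes a stress-induced leucine zipper factor, and among the 5 genes with overlapping peaks of both Sp1 antibodies it had the largest difference between them in fold enrichment. Near its main start, antibody 1 was 4.51-fold enriched (−log10 q 4.85) and antibody 2 14.3-fold (−log10 q 43.7), with summits 145 and 182 bp upstream. This was the weaker end of the antibody 1 list, of which 15.0% was lower, and the stronger end of the antibody 2 list, of which 87.3% was lower. CTCF lay in introns on either side of that start. The peak 717 and 718 bp downstream was 34.5-fold and 25.9-fold enriched, and the distal one 12719 and 12718 bp upstream was 71.5-fold and 20.6-fold enriched. Replicate 1 thus ranked the distal peak first and replicate 2 the proximal one.

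IER2 encodes a small nuclear protein induced early by growth signals, and all 4 lists had a peak at its start. Around the main start, antibody 1 was 3.98-fold enriched (−log10 q 2.93), antibody 2 6.00-fold (−log10 q 6.73), and CTCF 14.2-fold and 7.57-fold in the 2 replicates. The antibody 2 summit there, 20 bp upstream of IER2, was 8 bp from a start of STX10, which is the nearer gene. At another annotated IER2 start, 1565 bp downstream, the Sp1 signals were higher, at 10.2-fold (−log10 q 23.4) for antibody 1 and 7.12-fold (−log10 q 12.2) for antibody 2, with both summits on the same base. Minor CTCF peaks lay in the coding sequence, at 6.46-fold and 4.94-fold, and, in replicate 1 only, just past the gene at 8.24-fold.

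**Figure D3:**
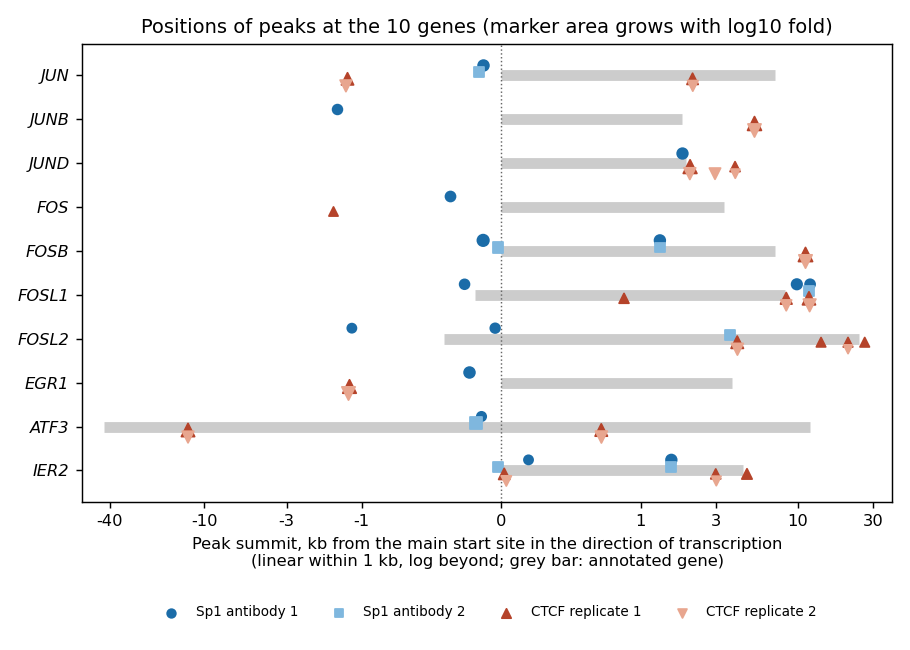
Each marker is a peak summit of 1 of the 4 lists, placed by its distance in kb from the main start site of the gene in the direction of transcription (linear within 1 kb, logarithmic beyond), with marker area growing with log10 fold enrichment and a grey bar for the annotated gene. Of the Sp1 markers, 11 of 15 for antibody 1 and 6 of 8 for antibody 2 are within 1 kb of a start of their gene, some of these at a start other than the main one (FOSB, FOSL2 and IER2), while at FOSL1 most Sp1 markers lie downstream of the gene. The share of such peaks over the whole lists is not given here. CTCF markers within 1 kb of 0 are seen at IER2, ATF3 and FOSL1.

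The 2 Sp1 antibodies had overlapping peaks at 5 of the 10 genes, JUN, FOSB, FOSL1, ATF3 and IER2, against 25.7% of all protein-coding genes. Over the 7 overlapping pairs of peaks, summits were a median of 37 bp apart, against 56 bp over all 4281 pairs of the lists. The log2 ratio of antibody 2 to antibody 1 fold enrichment had a median of −0.52 (SD 0.97 over 7 peaks), against −0.64 over all pairs. Antibody 2 was lower at 5 of the 7. Of all pairs of the lists, 74.6% lay below the FOSL1 ratio of −0.04, so at least that share was lower in antibody 2. The count was thus not particular to these genes. The log2 ratio was −0.96 and −0.95 at the 2 FOSB peaks, −0.72 at JUN, −0.52 at the downstream IER2 peak and −0.04 at FOSL1. It was 0.59 at the IER2 promoter peak and 1.66 at ATF3, a 3.16-fold excess of antibody 2. In the lists as a whole, 7.03% of pairs had a higher ratio than ATF3. With a single library per antibody, the spread between libraries of 1 antibody is not known, and the antibody and its library cannot be told apart.

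**Figure D4:**
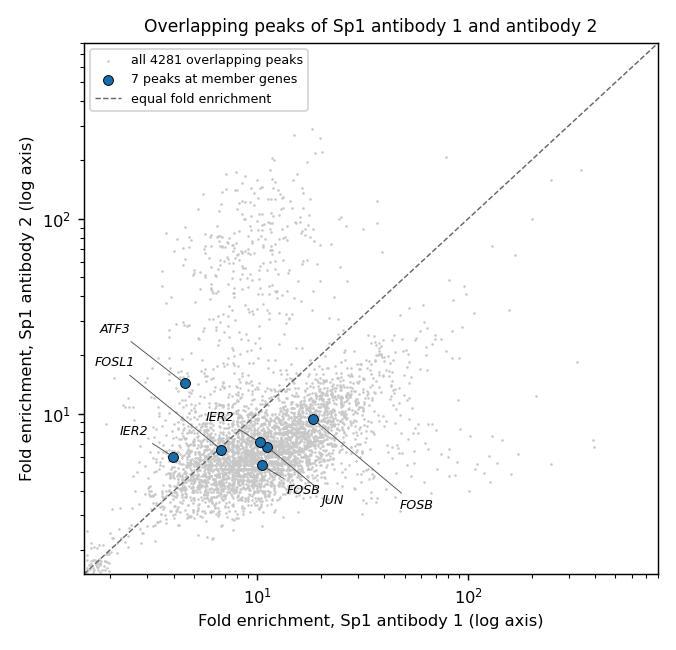
Each point is a pair of overlapping peaks, with antibody 1 fold enrichment on the x axis and antibody 2 on the y axis (both log), grey for all 4281 pairs and blue for the 7 pairs at JUN, FOSB, FOSL1, ATF3 and IER2; the dashed line marks equal values. ATF3 lies above the line at 4.51-fold and 14.3-fold, and the FOSB, JUN and downstream IER2 pairs lie below it.

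The 2 CTCF replicates had overlapping peaks at 9 of the 10 genes, against 60.9% of all genes. All 15 shared peaks were lower in replicate 2, with a median log2 ratio of −0.65 (SD 0.53 over 15 peaks), against −0.89 over all 34125 pairs. At least 94.2% of all pairs were lower in replicate 2, which is the share below the EGR1 ratio of −0.19. The direction was thus not particular to these genes. The summits were a median of 10 bp apart, against 8 bp. JUND had the lowest ratio, −2.21, which 0.384% of all pairs went beyond, at the interval that replicate 2 called as a pair of peaks. The distal ATF3 peak followed at −1.80, with 3.16% of pairs lower. At the other end EGR1 was at −0.19, and 5.81% of pairs were higher. The order of the strongest peaks therefore differed between replicates: FOSB, JUNB, JUND and EGR1 led in replicate 1, and FOSB, EGR1, JUNB and FOSL1 in replicate 2.

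**Figure D5:**
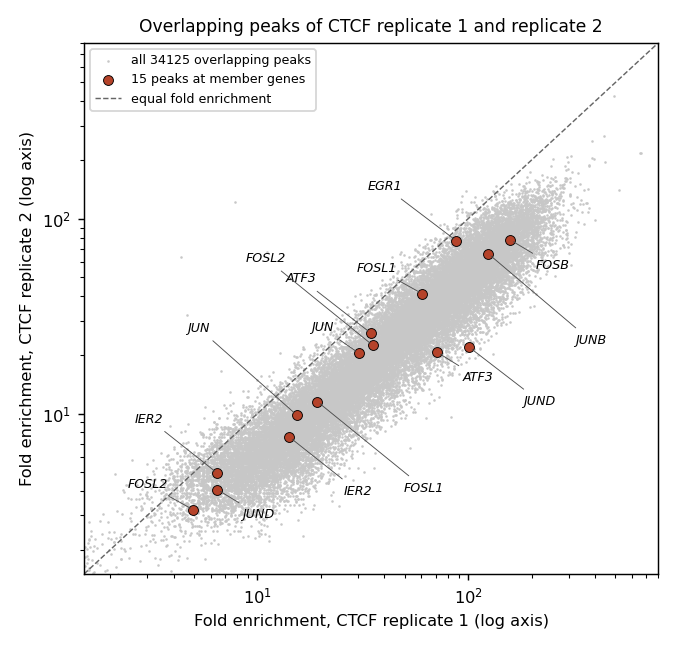
Each point is a pair of overlapping CTCF peaks, with replicate 1 fold enrichment on the x axis and replicate 2 on the y axis (both log), grey for all 34125 pairs and red for the 15 pairs at 9 of the 10 genes; the dashed line marks equal values. All 15 lie below the line, as do at least 94.2% of all pairs, with EGR1 closest to it and JUND and the distal ATF3 peak farthest.

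An antibody 1 peak overlapped a CTCF peak of either replicate at 4 of the 10 genes, JUND, FOSL1, EGR1 and IER2, against 14.9% of all genes. The overlaps differed in kind. At FOSL1 they lay at the FIBP start, where the antibody 2 summit was 9 bp and the antibody 1 summit 194 bp from that of CTCF replicate 1. At IER2 the antibody 1 summit was 174 and 159 bp, and the antibody 2 summit 42 and 57 bp, from those of CTCF. At JUND the distances were 230 and 222 bp. At EGR1 the intervals shared 222 bp in replicate 1 only, with summits 972 bp apart, so the 2 factors peaked at different places. The antibody 2 peak of FOSL2 also overlapped CTCF, with summits 394 and 405 bp apart. At the remaining genes the closest Sp1 and CTCF summits ranged from 862 bp at ATF3 to 9813 bp at FOSB.

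The GC box lay no more than 50 bp from the summit in 5 of the 15 antibody 1 peaks (33.3%, 95% Wilson interval 15.2 to 58.3), against 52.8% of the whole list. For antibody 2 it was present in 6 of 8 peaks (75.0%, 40.9 to 92.9), against 36.7%. All 15 antibody 1 peaks held a GC box somewhere in their interval, against 83.4% of the list. At FOSB the antibody 1 promoter window had none while the antibody 2 window, nearer the start, had 2. The intervals cover counting error only, and peaks at the same gene are not independent. The full CRE and the AP-1 element (TGACTCA) were within 50 bp of 0 of the 15 and 0 of the 8 Sp1 summits, against 1.47% and 0.988% of the antibody 1 list and 1.09% and 2.16% of the antibody 2 list. TGACG, which is contained in the CRE, was present at 5 of 15 and 3 of 8, against 15.1% and 13.2%.

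Of the 10 genes, 8 had a single RefSeq promoter entry, and ATF3 and FOSL1 did not. In those 8 promoters of 300 bases, both strands, the GC box was present in 6 (45.0% of all 35116 promoters), TGACG in 8 (24.6%), the CRE in 1, JUND (1.85%), the AP-1 element in 1, FOSL2 (4.95%), the CArG box in 1, EGR1 (1.29%), and the ETS core in 2, FOSB and IER2 (17.2%). The 2 promoters without a GC box were those of EGR1 and JUNB. Sites more than 250 bases before or 50 after the start lay outside this search, so a gene without a match here may still hold the element. A match is a description of letters and not of binding.

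The exact CTCF core was uncommon at the CTCF peaks of these genes and also in the whole lists. It lay within 50 bp of the summit in 1 of 20 replicate 1 peaks (5.00%, Wilson interval 0.888 to 23.6), the weak FOSL2 UTR peak, against 15.8% of the list. That interval includes the list share. With 1 mismatch the core was present in 5 of 20 (25.0%, 11.2 to 46.9), against 50.8%. With 2 mismatches it was present in 11 of 20 (55.0%, 34.2 to 74.2), against 80.2%. Here too the intervals cover counting error only, and peaks at the same gene are not independent. The EGR1 and FOSL2 windows printed above had 1 mismatch, those of JUNB, JUND and FOSB had 2, and those of FOSL1 and ATF3, at 60.4-fold and 71.5-fold, had 3. The bases around the summits were rich in G and C, with a median of 66.3% in the 20 peaks of replicate 1 against 52.5% over the list, and whether this bears on the motif counts was not tested.

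The limit of 5 kb left strong CTCF peaks out. The farthest peak inside it was the FOSB peak, 3985 bp past the gene at 159-fold. Just outside lay CTCF peaks 7097 bp from JUND (61.6-fold and 27.5-fold in the 2 replicates), 7225 bp from FOSL1 (136-fold and 107-fold), 7403 bp from JUN (85.4-fold and 47.4-fold) and 9454 bp from ATF3 (59.7-fold and 21.2-fold). Sp1 peaks between 5 and 10 kb were found at JUNB and IER2, the highest at 6.44-fold. No Sp1 or CTCF peak lay between 5 and 10 kb of FOS, FOSB, FOSL2 or EGR1.

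Related genes were read by the same rule. Over all protein-coding genes that rule gave 44.3% for antibody 1 and 31.0% for antibody 2. For CTCF it gave 68.1% in replicate 1 and 61.6% in replicate 2. Among 17 other leucine zipper genes, 10 had an antibody 1 peak, 8 an antibody 2 peak, 16 a CTCF peak in replicate 1 and 11 in replicate 2. ATF2 (39.8-fold), ATF7 (22.2-fold) and ATF4 (20.1-fold) led for antibody 1, all above FOSB. For CTCF replicate 1, CREM was 132-fold and ATF7 126-fold enriched. Among 24 other immediate early genes the counts were 16, 10, 23 and 20. GADD45B (21.7-fold), IER5L (18.2-fold) and PLK2 (17.7-fold) led for antibody 1, and NR4A1 (204-fold), PLK2 (133-fold) and IER5L (133-fold) for CTCF. Among 16 genes that act upstream, such as SRF, its partners and the MAP kinases, the counts were 12, 7, 14 and 13. There MAPK14 (119-fold), MAP2K2 (112-fold) and MAPK7 (20.0-fold) led for antibody 1, and MAPK14 (185-fold), MRTFB (109-fold) and MRTFA (90.7-fold) for CTCF replicate 1.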

How the data were processed

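Peak lists of 5 libraries were used: Sp1 antibody 1, Sp1 antibody 2, IgG and CTCF replicates 1 and 2. Per the submitters' processing notes, the authors used cutadapt 2.6 for trimming, Bowtie2 2.4.5 for alignment to hg38, SAMtools 1.15.1 for the alignment files and MACS2 2.2.7.1 for peak calling, and the notes also name deepTools 3.5.4 and bedtools 2.27.1; the methods of the study give other versions for some tools and state that duplicate reads were removed. From each deposited line the interval, the ratio of signal to control (fold enrichment), the −log10 q and the summit offset of a peak were used, while its score and −log10 p were not. The deposited lists hold no read counts, so the depth behind a value is unknown; library depth, duplicate removal and the control all bear on which weak peaks were called. The 3 input libraries were not analysed here.

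Summits were assigned to genes with Python 3.11.15, pandas 2.3.3, numpy 2.4.6 and scipy 1.17.1, on GENCODE release 44, whose build matches the lists, and figures were drawn with matplotlib 3.10.9. The main start site was that of the MANE transcript. Peaks of different lists overlapped when they shared at least 1 bp. Motifs were searched for on either strand, up to 50 bp from each summit. Every peak of the 10 genes is named, and of each related list the 3 genes with the highest fold for Sp1 antibody 1 and for CTCF replicate 1, except an item that is not reported here. The members, lists and motifs were chosen with earlier results of these data known. The assignment was tested on simulated data. Alternatives were other windows, overlap rules, a −log10 q of at least 3, motif windows and mismatches, and leaving out each CTCF replicate.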

Additional observations from a re-analysis of the deposited data

How the results depend on the processing

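Of 55 alternative values for 11 results, 46 kept their direction and stayed within the set limits, and 9 moved. A value counted as moved could also change sides against the share over all genes or peaks, as given below. With summits within 1 kb of the gene, CTCF replicate 1 marked 6 of the 10 genes in place of 10, beside 58.9% of all genes. Replicate 2 marked 6 in place of 9, beside 52.4%, which did not count as moved. With summits within 1 kb of a start site, an alternative chosen after seeing the data, the Sp1 counts were 8 and 4, in place of 10 and 6. These did not count as moved. The CTCF counts at that setting were 3 in replicate 1 and 2 in replicate 2, in place of 10 and 9. The CTCF counts thereby went from above the shares over all genes (68.1% and 61.6%) to below them (32.4% and 24.8%). Asking for summits within 100 bp left 1 gene with an antibody 1 peak at CTCF, in place of 4, beside 4.61% of all genes. Leaving out either CTCF replicate gave 3 to 4, which did not count as moved. The share of antibody 1 peaks with a GC box, 33.3%, was 60.0% within 100 bp, 100% anywhere in the peak and 75.0% in antibody 2 peaks. The first 2 of these 4 shares lay below those of the whole list (52.8% and 67.9%). The last 2 lay above them (83.4% and 36.7%). The share of CTCF replicate 1 peaks with the exact core, 5.00%, was 25.0% with 1 mismatch, and 55.0% with 2, which was also added after seeing the data. What part the window widths, the looser matches and the other antibody's list had in these changes was not tested.

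No paired analysis was possible because no result comes from a test, and the numbers of the CTCF replicates recur only in their inputs, not analysed here. The lists hold called peaks only, so the absence of a peak is not the absence of signal, and the depth behind each list is unknown.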

Other observations

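Antibody 2 gave peaks without antibody 1 at 3 of the related genes, which were picked out after their values were seen. These were ATF6, a membrane-bound factor of the unfolded protein response (11.1-fold), RPS6KA1, a kinase downstream of ERK (4.09-fold), and MCL1, an anti-apoptotic protein (3.97-fold). Among the 10 genes, FOSL2 was nearest to that pattern, with its 8.72-fold antibody 2 peak away from its antibody 1 peaks. Antibody 1 without antibody 2 was the more frequent case among the related genes, as at MAP2K2 (112-fold) and IER5L (18.2-fold). The share of all genes with either pattern is not given here. JDP2, a leucine zipper partner of JUN proteins, had no peak in any of the 4 lists.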
